A study of Mus musculus with 20 samples.

Results

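The endothelial genes of mouse pancreatic islets were followed across 4 genotypes in which β-cells lacked Mitofusin 1 (Mfn1), Mitofusin 2 (Mfn2), both or neither. Mitofusins are outer membrane proteins that fuse mitochondria. The set was 32 genes chosen by name as genes of vascular endothelial cells, and 32 of 32 were found among the 28632 genes of the count table. Bulk RNAseq had been run on islets of 12-week-old mice of both sexes, which were isolated with collagenase and cultured for 24 hours. The groups were 6 Ctrl, 4 β-Mfn1KO, 5 β-Mfn2KO and 5 β-Mfn1/2DKO libraries, with loxP-flanked Mfn1, Mfn2 or both removed by Ins1-Cre. Ins1-Cre is active in β-cells, so the endothelial cells of every group were meant to keep both mitofusins. Controls are labelled wild type, but by the study's methods they pooled Cre-only mice with mice that had floxed alleles and no Cre.

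Endothelial cells line the dense, fenestrated capillaries of the islet, which receive insulin from β-cells and answer to the vascular endothelial growth factor A (Vegfa) that β-cells make. Vegfa signals through the receptors Kdr and Flt1. Angiopoietins signal through Tek, which pairs with Tie1, and factors of the ETS and SOX families, among them Erg, Sox7, Sox17 and Sox18, maintain the endothelial programme. In whole islets, a change in the number of endothelial cells and a change in RNA per endothelial cell cannot be told apart.

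Many endothelial promoters carry ETS sites, so RefSeq promoters were searched for the letters AGGAAG on both strands. Of the 32 genes, 17 had a RefSeq window of 300 bases (21 windows, 250 bases before the start and 50 after), and 11 of the 21 windows (52.4%) held AGGAAG against 35.4% of 32851 windows of all genes. The longer ETS form ACAGGAAG was in 3 of 21 (14.3%, against 3.6% of all). SOX letters were in like shares, with ACAAT in 28.6% against 31.0% and ACAAAG in 19.0% against 18.7%, and TATAAA was in 9.5% against 13.6%. ACAGGAAG contains AGGAAG, so both counts share windows. The 250 bases before the start are shown for 3 genes whose stretch holds no annotated exon. Flt1 and Eng are shown as stretches with 2 matches each and Esm1 as one with none. The stretches of Kdr, Tek, Cldn5 and Dll4, which rose in β-Mfn1/2DKO, hold none either. Nor do those of Flt4 and Clec14a, whose changes did not pass the test given below. The 10 genes with a match before the start were Flt1, Tie1, Eng, Egfl7, Emcn, Cd34, Erg, Robo4, Apln and Rasip1, and all rose, as did 26 of the whole 32. Some of these stretches hold annotated exons, with all 250 bases in Rasip1, 212 in Tie1 and 75 in Robo4. Whether matches and changes are related was not tested. The stretches shown are from RefSeq on GRCm38.p6, with AGGAAG or its complement in capitals. A match is only a match of letters.
Flt1, minus strand, chr5:147726012-147726261: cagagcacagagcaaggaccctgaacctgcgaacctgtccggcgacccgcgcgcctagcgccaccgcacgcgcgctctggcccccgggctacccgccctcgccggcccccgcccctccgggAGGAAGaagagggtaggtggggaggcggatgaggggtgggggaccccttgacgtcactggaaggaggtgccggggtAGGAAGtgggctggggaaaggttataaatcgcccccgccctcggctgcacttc
Eng, plus strand, chr2:32646345-32646594: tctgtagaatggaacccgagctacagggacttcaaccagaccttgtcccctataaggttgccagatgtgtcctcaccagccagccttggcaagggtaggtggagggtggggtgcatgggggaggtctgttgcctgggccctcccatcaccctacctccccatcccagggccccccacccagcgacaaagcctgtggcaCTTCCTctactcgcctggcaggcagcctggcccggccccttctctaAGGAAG
Esm1, plus strand, chr13:113209409-113209658: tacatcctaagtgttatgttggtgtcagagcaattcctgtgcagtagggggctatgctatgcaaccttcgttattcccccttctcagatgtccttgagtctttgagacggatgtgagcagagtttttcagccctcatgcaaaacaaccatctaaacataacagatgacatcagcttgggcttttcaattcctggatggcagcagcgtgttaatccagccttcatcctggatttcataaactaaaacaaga

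Depth differed with genotype. Libraries held 12400687 to 20329064 counts in Ctrl, 15745680 to 16685381 in β-Mfn1KO, 15110046 to 59533407 in β-Mfn2KO and 65533388 to 122947313 in β-Mfn1/2DKO. The 32 genes together held 0.0378 ± 0.00616% of a library's counts in Ctrl (mean ± SD, n = 6), and in β-Mfn1/2DKO their share was 0.0629 ± 0.00967% (n = 5). The targeted genes followed their labels. In normalized counts, which are counts put on a common library size by edgeR's TMM factors, Mfn1 ran from 1518 to 1807 in Ctrl. It ran from 621 to 770.4 in β-Mfn1KO and from 687 to 1062 in β-Mfn1/2DKO. Mfn2 was at 3089 to 4373 in Ctrl, 1474 to 1688 in β-Mfn2KO and 2022 to 2131 in β-Mfn1/2DKO. Insulin mRNA (Ins1 and Ins2) took 11.7 to 19.2% of counts in Ctrl and 5.05 to 7.55% in β-Mfn1/2DKO. Genes of exocrine acinar cells were high in β-Mfn1/2DKO libraries 4 and 5, at a summed 16655 and 42949 CPM (counts scaled to a common library size) against 294 to 1862 in Ctrl, and β-Mfn2KO library 4 was at 7047. Fibroblast and macrophage genes were high in Ctrl library 6 and β-Mfn2KO library 5.

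Endothelial genes rose in β-Mfn1/2DKO islets by a median log2 fold change of 0.69, beside 0.07 in β-Mfn2KO and −0.13 in β-Mfn1KO. Against Ctrl, 26 of 32 were higher and 0 were lower by the quasi-likelihood test of edgeR, with p-values adjusted over all genes (Benjamini-Hochberg) and a threshold of 0.05. DESeq2 called 27 higher and 0 lower. In edgeR 30 of the 32 had an unadjusted p under 0.05, as did 7974 of all 28632 genes in either direction. By adjusted p, all genes tested gave 9.59% higher, and the 15214 genes kept by the filterByExpr filter, tested alone, gave 20.7%. Of these 15214, 6794 had an unadjusted p under 0.05 in the main fit. The 32 log2 fold changes were all above 0, with a median of 0.69 (1.61-fold) and quartiles of 0.58 and 0.80, against a median of 0.06 over all genes. In 9 genes (Cdh5, Eng, Egfl7, Plvap, Sox17, Robo4, Ptprb, Apln and Rasip1) every β-Mfn1/2DKO library was above every Ctrl library, and 6.56% of all genes did so. The 6 genes that did not pass were Flt4, Vwf, Icam2, Esm1, Clec14a and Gpihbp1. Depth moved with genotype, and with depth class (over 40000000 counts) as a covariate 4 genes passed (Cdh5, Robo4, Rasip1 and Dll4) while the median stayed at 0.68. Without β-Mfn1/2DKO libraries 4 and 5, whose acinar genes were high, 12 passed with a median of 0.57.

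**Figure D1:**
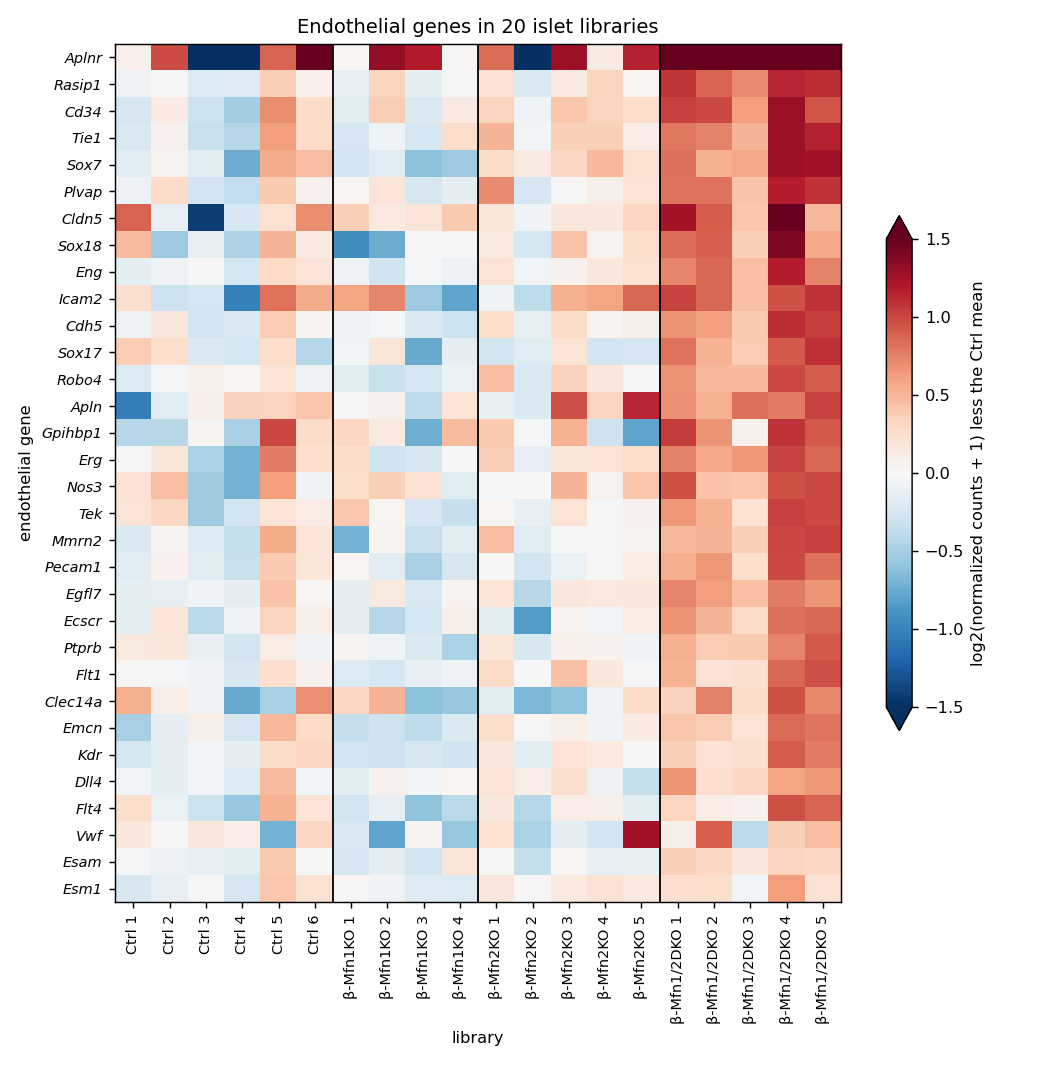
Level of each of the 32 endothelial genes (rows, ordered by fold change) in each of the 20 libraries (columns), as log2(normalized counts + 1) less the Ctrl mean, with the colour scale cut at 1.5 either way. The 5 β-Mfn1/2DKO libraries are red in nearly every row, libraries 4 and 5 most so, and Ctrl library 5 is the reddest control.

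Of the junction and adhesion genes, Cdh5, Pecam1, Cldn5 and Esam rose. Cdh5, the cadherin of endothelial junctions, was at 881 to 1399 normalized counts in Ctrl, with a median of 1059.8. It was at 1709.9, 1640.1, 1413, 2308 and 2203 in β-Mfn1/2DKO. These ranges did not overlap (log2 fold change 0.77, SE 0.12, edgeR adjusted p = 1.07e-04). Pecam1, an adhesion molecule of the same junctions, ran from 638 to 1052 in Ctrl around a median of 781. In β-Mfn1/2DKO it was at 1174, 1258, 964, 1595 and 1424. Library 3 lay below the highest control, and the log2 fold change was 0.66 (SE 0.13). Cldn5, a claudin of tight junctions, was 1.75-fold higher with a wide interval (95% interval of the log2 value 0.25 to 1.36). Esam, a further junction adhesion molecule, was at 968, 936, 838, 949.6 and 937 in β-Mfn1/2DKO. Its Ctrl values ran from 677 to 988, so no β-Mfn1/2DKO library exceeded the highest control, while the fitted log2 value was 0.29 (SE 0.09, adjusted p = 0.041). Icam2, an adhesion molecule with 4 or more counts per library, had a log2 value of 0.78 and did not pass (adjusted p = 0.094).

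Of the receptors that follow, all but Flt4 passed the test. Kdr, the main Vegfa receptor, was at 1512 to 2254 in Ctrl, with a median of 1709. It was at 2325, 2116, 2148, 3423 and 3084 in β-Mfn1/2DKO (log2 fold change 0.51, SE 0.12). Libraries 2 and 3 lay within the Ctrl range. Flt1, which binds Vegfa and limits its access to Kdr, had a log2 value of 0.59. Flt4, the receptor of Vegfc and Vegfd, had one of 0.47 and did not pass (adjusted p = 0.096). Tek and Tie1 had log2 values of 0.68 and 0.88. Eng, a co-receptor of the TGF-β family, was at 786 to 1154 in Ctrl, with a median of 917. It was at 1564, 1705, 1282, 2129.7 and 1577 in β-Mfn1/2DKO, above every control, with a log2 fold change of 0.80 (SE 0.11). Robo4, a guidance receptor of endothelium, had a log2 value of 0.72, and Ptprb, the phosphatase that acts on Tek, one of 0.60. Dll4, a Notch ligand of tip and arterial cells, had one of 0.48.

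Among structural, surface and secreted genes, Plvap, Cd34, Emcn, Egfl7, Mmrn2, Ecscr and Nos3 rose. Plvap forms the diaphragms of capillary fenestrae and was at 873 to 1486 in Ctrl, with a median of 1122. It was at 1990.3, 1985, 1513, 2560.0 and 2394 in β-Mfn1/2DKO, above every control (log2 fold change 0.86, SE 0.16). The sialomucins Cd34 and Emcn had log2 values of 0.93 and 0.51. Egfl7, a secreted matrix protein, had one of 0.64, and Mmrn2, a matrix protein of endothelium, one of 0.67. Ecscr and Clec14a, surface proteins of endothelial cells, had values of 0.63 and 0.55, the second not passing (adjusted p = 0.18). Gpihbp1, which carries lipoprotein lipase across capillaries, had 0.70 and did not pass (adjusted p = 0.089). Nos3, the endothelial nitric oxide synthase, had 0.68. Vwf, a clotting factor stored in larger vessels, was at 66.4, 117, 47.3, 80.0 and 86.6 in β-Mfn1/2DKO against 37.9 to 77.8 in Ctrl. It did not pass (log2 fold change 0.31, SE 0.29, adjusted p = 0.55).

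The transcription factors of the set all rose. Erg, an ETS factor, had a log2 fold change of 0.69, and the SOX factors Sox7, Sox17 and Sox18 had 0.87, 0.73 and 0.80. Sox17 was at 193, 157, 143, 208 and 235 in β-Mfn1/2DKO and at 80.9 to 142 in Ctrl. Rasip1, a Ras-interacting protein needed for vessel lumens, showed the second highest value. It was at 631, 550.4, 491, 663 and 649 in β-Mfn1/2DKO and at 261 to 388 in Ctrl, with a median of 296. The groups did not overlap (log2 fold change 0.97, SE 0.12). Rasip1 shares 654 of 3202 exon bases with Izumo1 on the same strand and 498 with the antisense gene A030001D20Rik, which itself rose by a log2 value of 0.61. Whether counting used strand is not given in the sources used here, so the value of Rasip1 is uncertain. The same holds for Nos3, which shares 294 exon bases with the antisense gene Atg9b (log2 value 2.70), and for Egfl7, which shares 64 with Agpat2 (0.42).

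**Figure D2:**
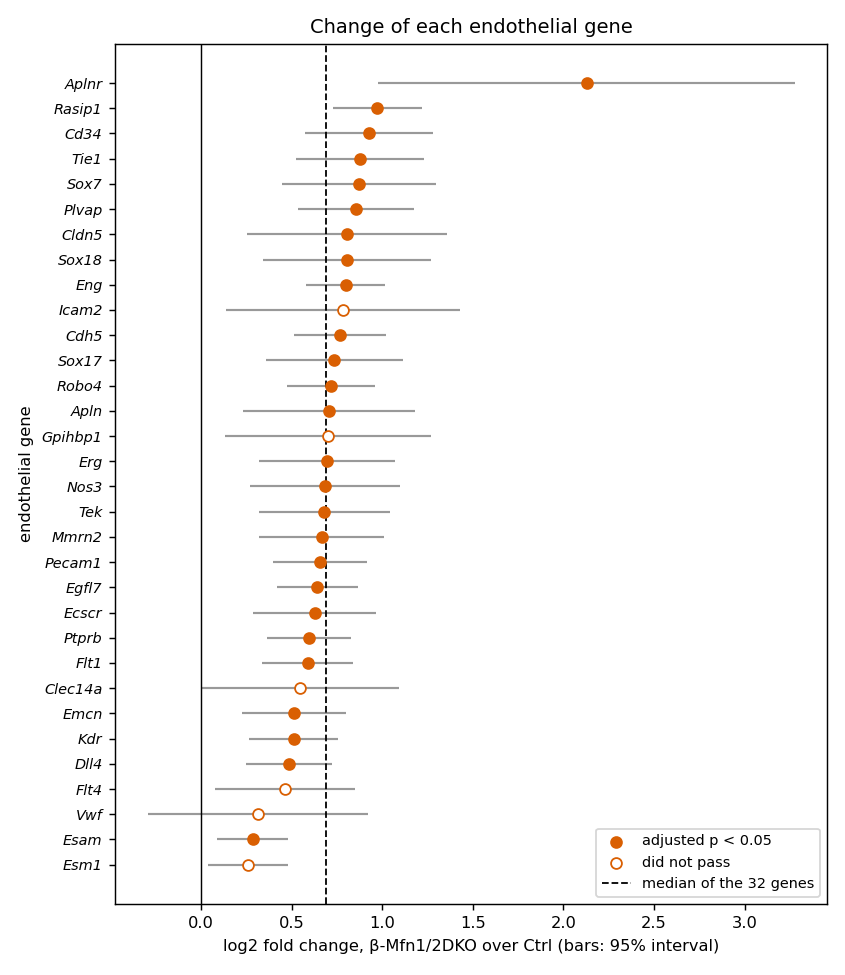
Log2 fold change of each endothelial gene in β-Mfn1/2DKO over Ctrl (points, filled where the adjusted p was under 0.05) with 95% intervals. The dashed line is the median of 0.69, which lies inside 28 of the 32 intervals, above those of Esam and Esm1 and below those of Rasip1 and Aplnr.

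In neither single knockout did an endothelial gene pass the test, but hardly any gene of the table did, so 0 of 32 is near the share over all genes. In β-Mfn2KO against Ctrl, 0 genes passed in edgeR and in DESeq2 and 0 had an unadjusted p under 0.05, with a median log2 fold change of 0.07. All genes gave 0.00699% higher. In β-Mfn1KO against Ctrl, 0 passed with either tool and 2 had an unadjusted p under 0.05, with a median of −0.13 (all genes 0.00699% higher). β-Mfn1/2DKO was then set against β-Mfn2KO. Here 24 of 32 were higher and 0 lower, with a median of 0.63, while all genes gave 7.09% higher. In 18 genes the libraries did not overlap, which held for 6.56% of all genes. Of these β-Mfn2KO libraries, 2 had over 40000000 counts, and with libraries of that depth alone 13 genes passed with a median of 0.66. The effect of losing Mfn1 was compared without and with Mfn2 by an interaction term. It was higher without Mfn2 in 14 of 32 genes (2.88% of all genes), with a median of 0.78. These comparisons share their β-Mfn1/2DKO or Ctrl libraries.

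Whether 1 factor describes the rise was examined with an endothelial level for each library, the median over 31 genes of the count over its geometric mean, relative to TMM scaling. With the geometric mean of Ctrl set to 1, the level was 0.807 to 1.33 in Ctrl, 0.826 to 0.980 in β-Mfn1KO and 0.868 to 1.16 in β-Mfn2KO. In β-Mfn1/2DKO it was 1.59, 1.48, 1.28, 1.97 and 1.84 (mean 1.63 ± 0.276, SD, n = 5). Library 3 lay below Ctrl library 5. The 2 deep β-Mfn2KO libraries were at 1.04 and 1.07, within the range of the shallow ones. Division of each gene by the level of the other genes lowered its spread. The median SD within groups, on the log2 scale, went from 0.300 to 0.180 and was smaller in 30 of 31 genes. The SD over all 20 libraries went from 0.449 to 0.208 and was smaller in 29 of 31. Within groups, each gene's correlation with the mean of the other endothelial genes had a median r of 0.72 over 20 libraries. The lowest values were 0.01 for Vwf, 0.24 for Apln and 0.39 for Clec14a. These libraries share their scaling, so r is a description.

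**Figure D3:**
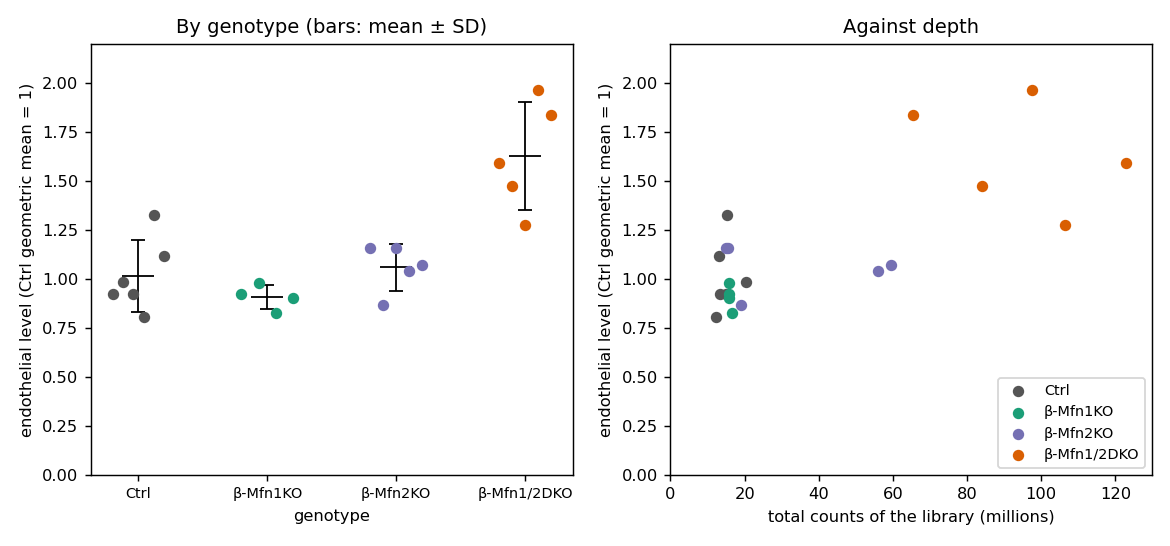
Endothelial level of each library by genotype (left, bars are mean ± SD) and against its total counts (right). The β-Mfn1/2DKO libraries, at 1.28 to 1.97, are both the deepest and the highest, and the 2 deep β-Mfn2KO libraries stay at 1.04 and 1.07.

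Departures from the shared factor were tested by the same edgeR test with each library scaled to its endothelial level, so that the set has a median near 0. In β-Mfn1/2DKO against Ctrl, 3 of 32 genes departed, against 44.3% of all genes, most of which are not endothelial and fall behind such a scale. Esm1 and Esam were lower and Aplnr was higher. The p-values were adjusted over all genes, so the many calls among other genes loosened the threshold for the 32. Adjusted p-values of departures therefore do not hold the error rate within the set. An unadjusted p under 0.05 was reached by 4 of the 32, and by 14295 of all 28632 genes. Against β-Mfn2KO, 2 departed (42.8% of all genes), Esm1 and Aplnr. In each single knockout against Ctrl, 0 departed in edgeR and 0 had an unadjusted p under 0.05. The endothelial level was also used as a covariate in place of a scale, which leaves little of the genotype difference to test, and then 0 departed. With counts thinned to the smallest total, 0 departed against β-Mfn2KO and 1 against Ctrl, which was Rasip1, while Esm1, Esam and Aplnr did not pass.

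Esm1 encodes endocan, a secreted proteoglycan that marks Vegfa-stimulated tip cells. It was the most abundant endothelial mRNA per length, at 1298 normalized counts per kilobase in Ctrl, ahead of Plvap at 579. It was at 2259 to 3538 in Ctrl with a median of 2557, while the β-Mfn1/2DKO libraries were at 3189, 3232, 2604, 4143 and 3126. These ranges overlapped, and its own change did not pass (log2 fold change 0.26, SE 0.11, adjusted p = 0.11). Relative to the other endothelial genes it was at 0.743, 0.811, 0.756, 0.773 and 0.632 in β-Mfn1/2DKO and at 0.906 to 1.09 in Ctrl. All 5 β-Mfn1/2DKO libraries thus lay below all controls. The departure was −0.42 on the log2 scale against Ctrl (adjusted p = 0.0034) and −0.48 against β-Mfn2KO (adjusted p = 0.0021). Both passed when any 1 library was left out. With counts thinned to the smallest total neither passed, at −0.28 against Ctrl (adjusted p = 0.17) and −0.36 against β-Mfn2KO (adjusted p = 0.083). Among libraries of over 40000000 counts alone the second was −0.51 and did not pass (adjusted p = 0.085).

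Esam departed by −0.38 against Ctrl (adjusted p = 0.014). Its ratio to the other genes was 0.802, 0.835, 0.866, 0.630 and 0.674 in β-Mfn1/2DKO and 0.852 to 0.894 in β-Mfn2KO. Against β-Mfn2KO the departure was −0.20 (adjusted p = 0.23). The lowest 2 ratios were those of libraries 4 and 5, whose acinar genes were high, and without library 4 or without library 5 the departure did not pass. The ratio of Rasip1 was 1.33, 1.26, 1.29, 1.13 and 1.18 in β-Mfn1/2DKO, above the Ctrl range of 0.947 to 1.08, but its departure of 0.29 did not pass (adjusted p = 0.085). Which genes departed higher changed with the setting. With filterByExpr, which leaves out Aplnr, 1 gene still departed higher against Ctrl and 2 lower. DESeq2 and scaling to the summed endothelial counts each gave 2 higher and 2 lower.

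**Figure D4:**
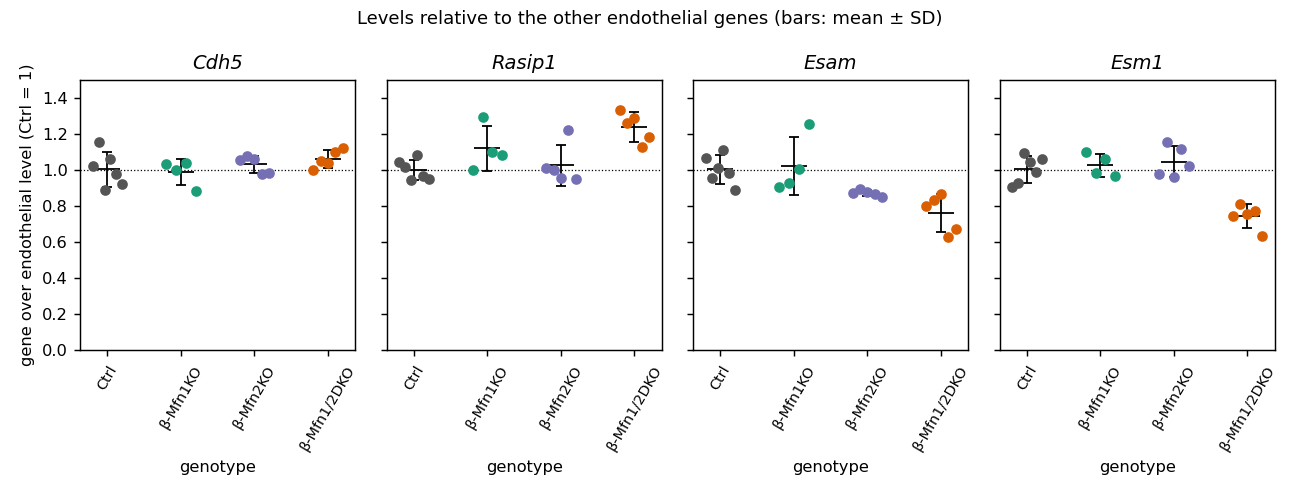
Level of Cdh5, Rasip1, Esam and Esm1 relative to the other endothelial genes in each library, by genotype, with Ctrl near 1 (bars are mean ± SD). Cdh5 stays near 1 in every group, while the 5 β-Mfn1/2DKO points of Esm1, at 0.632 to 0.811, lie below all controls.

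Aplnr, the apelin receptor of sprouting and venous endothelium, was the least abundant of the set. Its raw counts were 1, 3, 0, 0, 2 and 4 in Ctrl and 51, 50, 32, 71 and 45 in β-Mfn1/2DKO. Since depth differed, normalized counts are given too, with 0 to 12.5 in Ctrl and 15.7, 23.0, 11.3, 27.8 and 28.04 in β-Mfn1/2DKO. Library 3 lay below the highest control. In the 2 deep β-Mfn2KO libraries Aplnr had 4 and 11 raw counts, or 3.03 and 7.26 normalized. The log2 fold change against Ctrl was 2.13 (SE 0.55, adjusted p = 0.0094) and the departure 1.46 (adjusted p = 0.027). The departure did not pass without Ctrl library 1, 3 or 4 or without β-Mfn1/2DKO library 2 or 5. The filterByExpr filter kept 31 of the 32 genes and left out Aplnr. Apln, the ligand of this receptor, was at 365, 326, 403, 386 and 456 in β-Mfn1/2DKO against 110.5 to 302 in Ctrl (log2 fold change 0.71, SE 0.23). It was also at 441 and 501 in β-Mfn2KO libraries 3 and 5, and against β-Mfn2KO its log2 value was 0.23 (adjusted p = 0.58).

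Vascular ligands and other signalling genes outside the set did not move as 1 group. Of 24 measured, 9 were higher in β-Mfn1/2DKO than in Ctrl, against the 9.59% above, and 1 was lower, against 6.86% of all genes. Their median log2 fold change was 0.41. Angpt1, the ligand that activates Tek, was the gene that fell. It was at 25.4 to 58.3 in Ctrl, while the β-Mfn1/2DKO libraries were at 22.8, 24.0, 24.7, 24.7 and 20.6 (log2 fold change −0.84, SE 0.24, edgeR adjusted p = 0.017). Angpt1 did not pass with depth class as a covariate, with thinned counts or without Ctrl library 5. Nor did it pass without β-Mfn1/2DKO libraries 4 and 5 or in either sex alone. Against β-Mfn2KO its log2 value was −0.95. Angpt2, its antagonist in many settings, had 0.42 and did not pass (adjusted p = 0.060). Vegfa was at 21741 to 25641 in Ctrl, while the β-Mfn1/2DKO libraries were at 28457, 29731, 28626, 24723 and 22772 (log2 fold change 0.19, adjusted p = 0.055). The 3 higher libraries were those without high acinar genes. Lpl, a lipoprotein lipase, had 0.14 (adjusted p = 0.44).

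The 9 genes that rose included genes that endothelial cells use. S1pr1, a sphingosine phosphate receptor, had a log2 value of 0.60, and Notch4, an endothelial Notch receptor, one of 0.53. The Notch ligand Jag1 and the Notch target Hey2 had 0.92 and 1.28, each without overlap with Ctrl, which held for 6.56% of all genes. Hey2 was at low levels, 3.51 to 18.7 normalized counts in Ctrl and 21.2 to 34.9 in β-Mfn1/2DKO. β-Mfn1KO library 3, at 42.2, lay above all of these, and β-Mfn2KO library 3 was at 32.3. The arterial ligand Efnb2 had a log2 value of 0.61 and its venous receptor Ephb4 one of 1.07. Nrp1, a co-receptor of Vegfa, had 0.52, with libraries 4 and 5 at 858 and 857 and the others at 433 to 524. Klf4 had 0.69 and the hypoxia factor Epas1 0.40. With depth class as a covariate 0 of 24 passed in edgeR and their median fell to 0.15.

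A second list of 29 endothelial genes, also chosen with earlier results known, gave 12 higher and 0 lower against Ctrl, beside 9.59% higher over all genes, with a median of 0.48. Against β-Mfn2KO 5 were higher (7.09% over all genes) and 1, Heg1, was lower. In the interaction 0 passed in edgeR (2.88% over all genes) and 15 had an unadjusted p under 0.05, as did 5286 of all 28632 genes. With depth class as a covariate, 1 was higher against Ctrl and the median was 0.28. Without Ctrl library 1 or 4, or without β-Mfn1/2DKO library 4 or 5, 7 were higher. This list did not enter the endothelial level. Scaled to that level, 5 of its 29 genes departed lower against Ctrl and 0 higher, beside 44.3% of all genes in either direction. Against β-Mfn2KO 9 departed lower and 0 higher, beside 42.8%. The second list thus rose less than the factor of the 32 genes. Of 12 genes of mural cells, which wrap capillaries, 5 were higher (9.59% over all genes), and their summed level was 52.9 to 91.7 CPM in β-Mfn1/2DKO against 39.1 to 94.9 in Ctrl. The top of this Ctrl range was library 6, and the other controls were at 39.1 to 46.7. β-Mfn2KO library 5 was at 102. The defining mural gene Pdgfrb was at 539 to 791 in β-Mfn1/2DKO and 244 to 588 in Ctrl, and Rgs5 at 253 to 695 and 201 to 448. For the lymphatic list 0 of 5 passed in edgeR (2 at an unadjusted p under 0.05), with a summed level of 66.9 to 82.3 CPM in β-Mfn1/2DKO and 58.6 to 73.6 in Ctrl, most of it from Prox1, which islet endocrine cells also express. Of the other lists against Ctrl, 11 of 13 acinar, 3 of 7 duct, 2 of 7 blood and 1 of 7 Schwann cell genes were higher. Their median log2 fold changes were 3.72, 0.41, 3.13 and 0.79. The median was 0.48 for mural and 0.51 for fibroblast genes, and −0.48 for macrophage and −0.20 for lymphatic genes. A median near that of the endothelial genes was thus not theirs alone. The median summed acinar level was 758 CPM in β-Mfn1/2DKO and 954 in Ctrl, with β-Mfn1/2DKO libraries 4 and 5 far above the rest. Summed blood genes were at 79.3 and 26.3 CPM in these libraries and at 0.801 to 3.21 in the other β-Mfn1/2DKO libraries. Of 12 β-cell genes 11 were lower (6.86% over all genes), and 1 of 12 macrophage and 1 of 7 blood genes were lower. Of 8 fibroblast genes 0 passed in edgeR, and 2 had an unadjusted p under 0.05. The summed fibroblast level was 31.99 to 79.1 CPM in β-Mfn1/2DKO and 12.1 to 288 in Ctrl, and the macrophage level 90.9 to 191 and 81.0 to 664. The part of other cell types in the endothelial values was not tested.

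By likeness within groups, the 10 genes outside the set closest to the mean of the 32 were Arap3 (r = 0.97), Col13a1, Sema3f, Acvrl1, Entpd1, S1pr1, Lims2, Plaur, Slc43a3 and Jcad (r = 0.83), over 20 libraries. Among 12248 genes compared, the median r was −0.02. Of these 10, Arap3, Sema3f, Acvrl1, S1pr1, Slc43a3 and Jcad were also higher in β-Mfn1/2DKO, with log2 fold changes of 0.55, 0.60, 0.73, 0.60, 1.01 and 0.66. Over all genes 9.59% were higher, and 20.7% of those kept by filterByExpr.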

How the data were processed

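RNAseq counts of 20 islet libraries were analysed. Per the labels' processing notes and the study's methods, the authors checked reads with FastQC 0.11.8, aligned them to GRCm38 with STAR 2.6.1b and estimated gene counts with RSEM 1.3.1 (the notes also name cutadapt 2.3 and DESeq2 1.26.0). The deposited counts are whole numbers without normalization, and genes at 0 in all samples had been removed. A second deposited table, depth-normalized, was not used here. Groups came from the sample labels. The study gives the number of samples per group as mice, and the labels do not say more on their origin. Symbols and exons came from GENCODE release M21 (71 IDs had none).

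For 28632 genes, the quasi-likelihood test of edgeR 4.0.16 (R 4.3.3) was run on the counts (TMM, estimateDisp, glmQLFit, glmQLFTest, 1 fit over 20 libraries, no covariate). A gene passed at a Benjamini-Hochberg adjusted p under 0.05. The SE is the absolute log2 fold change over the root of F. The endothelial level used genes with a mean count of 10 or more and none at 0. The scripts were tested on simulated data. Alternatives included DESeq2 1.42.0, other scalings, filterByExpr, sex, depth class and replicate number as covariates, thinning (seed 20) and leaving out each library. Leaving out library pairs, deep libraries alone and each sex alone were chosen after seeing the data. The members and lists were chosen with earlier results of these data known. All 32 members are named. Of the signalling list, genes that passed and Vegfa, Angpt1, Angpt2, Nrp1 and Lpl are named, and of other lists counts, summed levels and some markers. Likeness is Pearson r of log2 CPM less the group mean, for genes with a mean of 100 or more normalized counts.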

Additional observations from a re-analysis of the deposited data

Results flagged for a closer look

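In 13 of 180 combinations of gene and genotype, over the 45 genes and 4 groups examined, 1 library lay far from the others of its group by Dixon's criterion, which by chance gives about 1 in 20, or 9. Ctrl library 5 held 4 of them, all high. Its normalized counts were 988 for Esam (others 677 to 750.3), 1198 for Egfl7 (803 to 909), 1096 for Dll4 (684 to 769) and 807 for Notch4 (456 to 560.4). The endothelial level of that library, at 1.33, was also the highest of the controls. β-Mfn2KO library 3 was high in Sox17, at 127 (others 89.5 to 96.0), and Hey2, at 32.3 (13.6 to 17.9), and low in Vegfa, at 22459 (24442 to 24885). β-Mfn2KO library 5, where fibroblast and macrophage genes were high, was at 151 for Vwf (44.7 to 73.3) and 785 for Epas1 (572 to 623). β-Mfn2KO library 2 was low in Egfl7, at 668 (983 to 1021). β-Mfn1KO library 3 was high in Nrp1, at 422 (316 to 327), and in Hey2, at 42.2 (11.0 to 11.2). β-Mfn1/2DKO library 3 was low in Esam, at 838 (936 to 968).

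The effect of losing Mfn1 differed with the presence of Mfn2 in 14 endothelial genes by the interaction term of edgeR. On the log2 scale the interaction was 1.12 for Sox17, 1.11 for Sox7, 0.98 for Ecscr, 0.94 for Pecam1, 0.93 for Mmrn2, 0.87 for Rasip1 and 0.85 for Cdh5. It was 0.82 for Emcn, 0.81 for Eng, 0.78 for Robo4, 0.78 for Ptprb, 0.75 for Kdr, 0.64 for Egfl7 and 0.52 for Esam. Part of each value came from the comparison with Mfn2 present. There, in β-Mfn1KO against Ctrl, all of these genes but Rasip1 (0.01) had log2 values below 0, from −0.47 for Sox7 to −0.05 for Egfl7, and none passed. With Mfn2 absent, in β-Mfn1/2DKO against β-Mfn2KO, all were higher and passed, from 0.40 for Esam to 0.93 for Sox17. Depth moved with this term too. With depth class as a covariate 8 genes passed with a median of 0.77 over the 32, and with counts thinned to the smallest total 7 passed with a median of 0.74.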

How the results depend on the processing

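The endothelial median stayed above 0 in β-Mfn1/2DKO under every alternative run, while counts of calls moved. With depth class as a covariate, which rests on β-Mfn2KO libraries 4 and 5, the calls fell from 26 to 4 against Ctrl, from 24 to 11 against β-Mfn2KO, from 14 to 8 in the interaction, from 10 to 0 in the signalling list and from 12 to 1 in the second endothelial list. Thinned to the smallest total, these were 12, 10, 7, 5 and 7. Without β-Mfn1/2DKO libraries 4 and 5 they were 12 against Ctrl, 12 against β-Mfn2KO, 5 for signalling and 6 for the second list. Male libraries alone gave 8 (median 0.68), 4 for signalling and 3 for the second list, and female libraries alone 27 (median 0.70), 10 and 11. In addition, libraries over 40000000 counts gave 13 against β-Mfn2KO, and the interaction gave 22 with DESeq2 and 22 with total counts. Departures against Ctrl, 3 in all, were 0 with the endothelial level as a covariate, 1 when thinned and 1 without β-Mfn1/2DKO libraries 4 and 5. Those against β-Mfn2KO, 2 in all, were 0, 0 and 1, with 1 under filterByExpr and 0 in deep libraries alone. With any 1 library left out, calls ranged from 22 to 29 against Ctrl, 16 (without β-Mfn2KO library 2) to 28 against β-Mfn2KO, 10 to 19 in the interaction, 7 to 13 for signalling and 7 to 14 for the second list, and departures from 1 (without β-Mfn1/2DKO library 5) to 3 against Ctrl and from 1 (without β-Mfn2KO library 2 or 4) to 3 against β-Mfn2KO. Apart from filterByExpr against Ctrl, calls over all genes were not counted under these alternatives. Whether the endothelial calls fell more than those of other genes was therefore not tested. The cause of these changes in calls was not tested either. Leaving out samples or counts also leaves fewer data for the test, so it cannot tell the cause. Single knockouts gave 0 throughout, and Cdh5 and Rasip1 passed against Ctrl in 33 of 33 settings.

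Replicate numbers were also used as a block. Same-numbered libraries had a mean r of 0.246 over 27 pairs (lowest −0.10, 21 over 0.1) against −0.05 over 122 pairs of other numbers (36 over 0.1), and 10 of 20 libraries correlated best with their own number. This hints at shared structure, but not every pair exceeded 0.1 and no label says what a number marks, so the numbers were not taken to pair libraries. Numbers also ran with sex. Libraries numbered 1 or 2 were all female and those numbered 4 or 5 all male. The r values had genotype means removed but not sex, and the part of sex in them was not tested. The replicate block gave 28 calls against Ctrl, 26 against β-Mfn2KO, 11 in the interaction, 12 for signalling and 13 for the second list, with 3 and 2 departures. Depth limits Aplnr, with 0 to 4 counts per Ctrl library.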
